A study of Bos taurus with 6 samples.

Results

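De novo lipogenesis is the making of fatty acids from small carbon units, and 10 genes that carry it out or control it were followed here in the intramuscular fat (IMF) of castrated and intact male cattle. The genes were chosen by name, and all 10 were among the 25444 genes of the mRNA count table. They comprised 5 enzymes (ACSS2, ACSS1, ACLY, ACACA and FASN) and 5 regulators (SREBF1, SCAP, MLXIPL, THRSP and MID1IP1). All animals were Chinese Qinchuan males, weaned at 3 months, given the same concentrate feeds after 6 months and slaughtered at 24 months, when IMF was dissected from the sternomandibularis muscle. The steers had been castrated by surgery at 6 months and the bulls were left intact. The mRNA was sequenced in 1 pooled library per group and the small RNA in 2 libraries per group. The series' design text gives 6 animals for each mRNA pool and 3 for each small RNA pool, whereas the sample descriptions give 3 and 1.

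Fatty acids are built in the cytosol from acetyl-CoA. ACLY makes acetyl-CoA from citrate, and ACSS2 makes it from free acetate. Cattle and other ruminants take up much acetate from fermentation in the rumen, and acetate is the main carbon source for fatty acid synthesis in their fat. ACACA, acetyl-CoA carboxylase alpha, turns acetyl-CoA into malonyl-CoA, and FASN, fatty acid synthase, joins these units into palmitate with electrons from NADPH. SREBF1 encodes the transcription factor SREBP-1, which is held in the endoplasmic reticulum with its escort protein SCAP and is cut in the Golgi before it enters the nucleus. MLXIPL encodes ChREBP, a transcription factor that responds to glucose metabolites. THRSP (Spot 14) and its paralog MID1IP1 (MIG12) are small proteins of lipogenic tissue, and MID1IP1 promotes the assembly of acetyl-CoA carboxylase into its active polymer.

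The steer library held 12677375 counts and the bull library 9868415. The 10 genes with the most counts in a library took 18.8% of the counts in the steer pool and 13.0% in the bull pool. Counts were divided by median-of-ratios size factors of 1.04 and 0.959, and a gene was called when an exact binomial test of its pair of counts gave a Benjamini-Hochberg adjusted p under 0.05 with more than a 2-fold difference. With 1 pool per group, this test compared 2 libraries and not the conditions, and the 95% intervals given for mRNA cover counting error only. Of the 17752 genes with a count, 4.66% were called upregulated in steers and 8.50% downregulated. Calls up made 35.4% of all calls. That share was 21.9% with scaling to total counts and 66.5% with scaling to adipocyte markers. The adipocyte markers expected in fat were abundant in both pools (48976 counts in the steer pool and 50952 in the bull pool over 13 genes), although ADRB3 had 0 counts in the steer pool and 2 in the bull pool.

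Of the 10 lipogenesis genes, 4 were called upregulated in the steer pool, against the 4.66% of all genes, and 0 were called downregulated. The 4 were ACSS2, FASN, ACACA and THRSP. The median log2 fold change of the 10 genes was 0.79, where that of all genes tested was 0.01. Among the 10464 genes with at least 100 counts over both libraries, a comparison added after the data were seen, 3.30% were called upregulated and the median was 0.04. The 10 genes together held 0.698% of the counts in the steer pool and 0.130% in the bull pool, and without FASN the remaining 9 held 0.234% and 0.0746%. The steep differences were on the enzyme side, with 3 of 5 enzymes called and a median of 3.21. Among the 5 regulators 1 was called, and the median was 0.25.

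**Figure D1:**
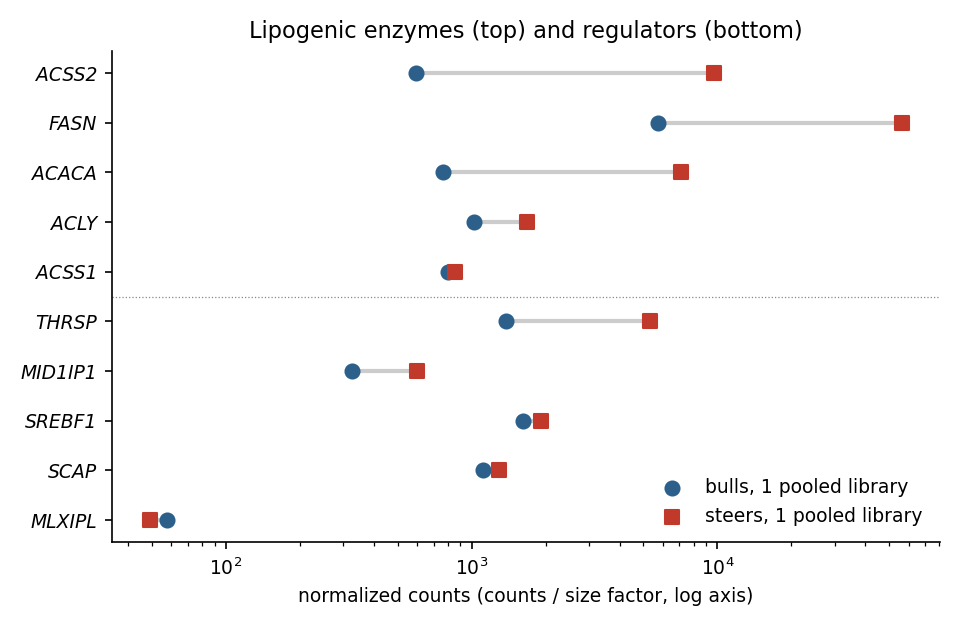
Normalized counts (counts divided by the size factor, log axis) of the 5 enzymes above the dotted line and the 5 regulators below it, with 1 point for each pooled library. ACSS2, FASN, ACACA and THRSP show wide gaps between bulls and steers, whereas the points for ACSS1, SREBF1, SCAP and MLXIPL lie close together.

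ACSS2, the cytosolic acetyl-CoA synthetase, showed the widest difference of the 10 genes. It had 10084 counts in the steer pool and 567 in the bull pool. This was a 16.3-fold difference, with a log2 fold change of 4.03 (95% interval 3.91 to 4.15). When the 12787 genes with at least 10 counts in each library were ordered from the highest fold in steers, ACSS2 stood at place 3.

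Its mitochondrial relative ACSS1, which activates acetate for oxidation, had 890 counts in the steer pool and 767 in the bull pool. The log2 fold change of 0.09 (95% interval -0.05 to 0.23) was not called, and its sign changed to -0.15 with scaling to total counts. The ratio of ACSS2 reads to ACSS1 reads does not depend on scaling, and it was 11.3 in steers and 0.739 in bulls. The cytosolic and mitochondrial synthetases therefore differed in their change by 3.94 on the log2 scale (95% interval 3.75 to 4.12). These ratios are of reads and were not corrected for transcript length, so they compare the pools and not the levels of the genes.

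ACLY, ATP citrate lyase, supplies the same cytosolic acetyl-CoA from citrate. It had 1753 counts in the steer pool and 984 in the bull pool, a log2 fold change of 0.71 (95% interval 0.60 to 0.83) that stayed under the 2-fold threshold. There were 5.75 ACSS2 reads for each ACLY read in steers and 0.576 in bulls. The change of the acetate enzyme was thus larger than that of the citrate enzyme by 3.32 on the log2 scale (95% interval 3.15 to 3.49). With scaling to the adipocyte markers ACLY reached a log2 fold change of 1.09 and was called.

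ACACA and FASN, the consecutive enzymes that commit acetyl-CoA to fatty acids and build the chain, differed to a like degree. ACACA had 7423 counts in the steer pool and 735 in the bull pool, with a log2 fold change of 3.21 (95% interval 3.10 to 3.33). FASN had 58834 counts in the steer pool and 5496 in the bull pool, with a log2 fold change of 3.30 (95% interval 3.26 to 3.34). FASN alone took 0.464% of all counts in steers and 0.0557% in bulls, and it stood at place 22 among all genes by counts in steers and at place 241 in bulls. By fold it stood at place 8, and ACACA at place 11.

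For each ACACA read there were 7.93 FASN reads in steers and 7.48 in bulls. The difference of 0.08 on the log2 scale had a 95% interval of -0.03 to 0.20, so no difference between these genes was detectable at this depth. FASN and ACLY did come apart, with 33.6 FASN reads for each ACLY read in steers and 5.59 in bulls, a difference of 2.59 (95% interval 2.47 to 2.71). In pairs added after the data were seen, the change of ACSS2 was larger than that of FASN by 0.73 (95% interval 0.60 to 0.86) and larger than that of ACACA by 0.82 (95% interval 0.65 to 0.98). The order of the enzymes by fold was therefore ACSS2, FASN and ACACA, ACLY and ACSS1, and within counting error FASN and ACACA could not be separated.

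**Figure D2:**
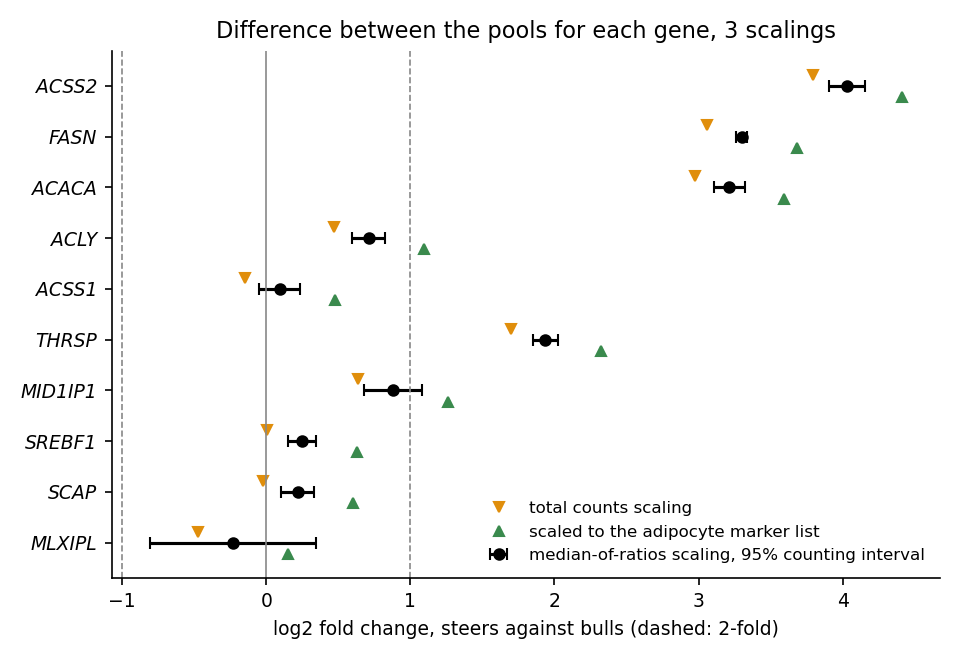
Log2 fold change of each gene, steers against bulls, with its 95% counting interval (black) and the value with scaling to total counts (orange) or to the adipocyte markers (green); dashed lines mark 2-fold. ACSS2, FASN, ACACA and THRSP stay beyond 2-fold under each of these scalings, ACLY and MID1IP1 pass it with the adipocyte markers, and ACSS1, SCAP and MLXIPL change sign between scalings.

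THRSP, a nuclear and cytosolic protein whose expression follows lipogenic demand, was the only regulator called. It had 5537 counts in the steer pool and 1328 in the bull pool, a 3.83-fold difference, or 1.94 on the log2 scale (95% interval 1.85 to 2.03). MID1IP1, its paralog, had 624 counts in the steer pool and 312 in the bull pool, with a log2 fold change of 0.88 (95% interval 0.68 to 1.08) that was not called. Reads of THRSP numbered 8.87 for each MID1IP1 read in steers and 4.26 in bulls, so the change of THRSP was larger by 1.06 on the log2 scale (95% interval 0.85 to 1.27). The call of THRSP was lost when a biological coefficient of variation of 0.4 was assumed. With scaling to the adipocyte markers MID1IP1 reached 1.26 and was called. The change of THRSP was in turn smaller than that of FASN, by 1.36 (95% interval 1.27 to 1.46) in a pair added after the data were seen.

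The transcription factors and the escort protein lay close to equal in the 2 pools. SREBF1 had 1999 counts in the steer pool and 1548 in the bull pool, a 1.19-fold difference with a log2 fold change of 0.25 (95% interval 0.15 to 0.34). SCAP had 1349 and 1066 counts, with a log2 fold change of 0.22 (95% interval 0.10 to 0.33). With scaling to total counts, which moved the median of all genes to -0.23, SCAP changed sign to -0.02. The number of SREBF1 reads for each SCAP read was 1.48 in steers and 1.45 in bulls, a difference of 0.03 (95% interval -0.12 to 0.18).

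SREBF1 and its classical target gene FASN were set side by side in a pair added after the data were seen. There were 29.4 FASN reads for each SREBF1 read in steers and 3.55 in bulls. The change of FASN was larger than that of SREBF1 mRNA by 3.05 on the log2 scale (95% interval 2.95 to 3.16). The SREBP-1 protein and its processing were not measured in these data, and their part in this difference was not tested. Gene counts also do not separate the SREBP-1a and SREBP-1c transcripts. In the RefSeq gene table RAI1 overlaps SREBF1, with 231 counts in the steer pool and 211 in the bull pool, and the use of strand in counting is not given in the sources used here.

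MLXIPL had 51 counts in the steer pool and 55 in the bull pool. Its log2 fold change of -0.23 had a 95% interval from -0.81 to 0.35, and the sign changed to 0.15 with scaling to the adipocyte markers. At this depth a difference within that interval was not detectable. The comparison of SREBF1 with MLXIPL was equally wide, at 0.48 (95% interval -0.08 to 1.04).

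**Figure D3:**
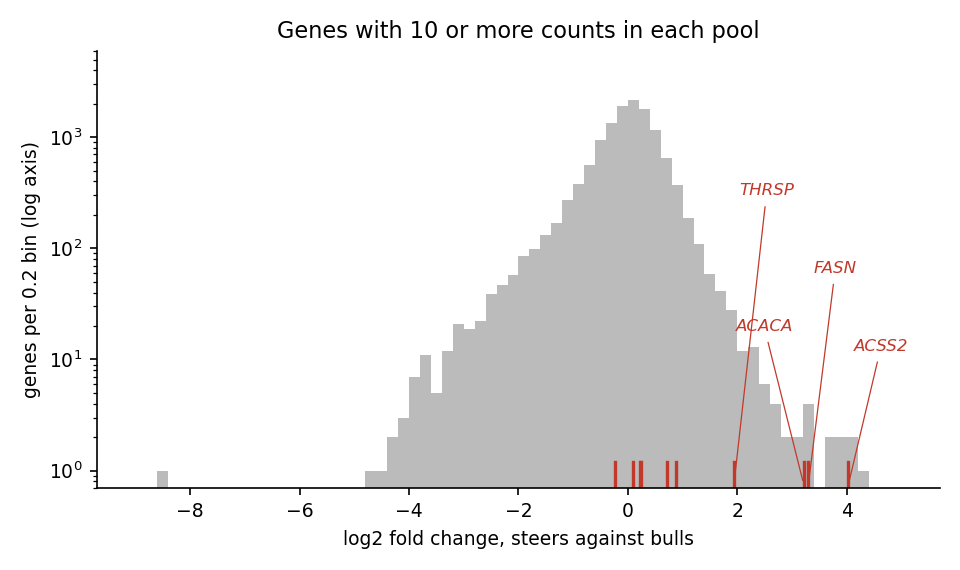
Number of genes (log axis) by log2 fold change, steers against bulls, for the 12787 genes with at least 10 counts in each pool, with red ticks for the 10 lipogenesis genes. ACSS2, FASN and ACACA lie in the sparse right tail at places 3, 8 and 11 and THRSP at place 60, while the other ticks lie in the body of the distribution.

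The fat cell content of the pools bears on each of these values, since in bulk tissue more fat cells and more RNA per fat cell cannot be told apart. Of 13 adipocyte markers measured, 4 had a log2 fold change above 0 and 9 below, and their median was -0.38. The number called upregulated was 0, and 1 was called downregulated (FABP4, a fatty acid binding protein, log2 fold change -1.06). RBP4, the most abundant of them in both pools, was at 0.36 and CIDEC at 0.28, whereas PLIN1 was at -0.38 and ADIPOQ at -0.68. The 13 markers took 0.386% of the counts in the steer pool and 0.516% in the bull pool. The part of fat cell content in the enzyme values was not tested. Set against the summed markers, FASN numbered 1.20 reads for each marker read in steers and 0.108 in bulls. On the log2 scale the change relative to the markers was 3.48 for FASN (95% interval 3.43 to 3.52), 3.39 for ACACA (3.28 to 3.50), 4.21 for ACSS2 (4.09 to 4.33) and 0.89 for ACLY (0.78 to 1.00). For SREBF1, in a pair added after the data were seen, it was 0.43 (0.33 to 0.52).

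Markers of other cell types did differ between the pools. Their calls stand beside the 4.66% of all genes called upregulated and 8.50% called downregulated. The T lymphocyte markers were called downregulated in 12 of 12 genes (161 counts in the steer pool and 1265 in the bull pool) and the myeloid markers in 9 of 11 (33250 and 84876). For B lymphocytes it was 5 of 7 genes (58 and 327 counts). Fibroblast and matrix genes took 14.2% of the counts in the steer pool and 8.67% in the bull pool, and 4 of 12 were called upregulated. Epithelial markers were called upregulated in 5 of 8 genes but held 436 counts in the steer pool and 59 in the bull pool, with KRT14 at 0 in both. Of the muscle markers 1 of 12 was called upregulated (MYH1, 1.15) and 2 downregulated (MYH7, -2.23, and DES, -1.26). The muscle markers took 0.291% of the counts in the steer pool and 0.525% in the bull pool (36888 and 51785 counts). The endothelial markers had 0 calls in 10 genes, and the erythroid list held 40 and 8 counts with 1 gene of 4 called upregulated. Of 5 hepatocyte markers 1 was called in each direction, and ALB had 0 counts in the steer pool and 1 in the bull pool. The part of these cell types in the values of the lipogenesis genes was not tested.

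The genes around the 10 were read from 7 lists of neighbouring pathways. Of their 84 measured genes, 8 were called upregulated and 1 downregulated, with a median log2 fold change of 0.24. With an assumed biological coefficient of variation of 0.4, 0 genes of these lists were called. Over all genes 4.66% were called upregulated and 8.50% downregulated, so a single call in a list of this size is near the share of all genes. With scaling to the adipocyte markers, 1958 of all 17752 genes tested were called upregulated, and the median of all genes was 0.39. Calls up then numbered 2 of 13 in citrate supply, 2 of 10 in NADPH supply and 5 of 11 in desaturation and elongation. The SREBP list had 7 of 15 and mitochondrial fatty acid synthesis 2 of 8. The upstream transcription factors had 0 of 15, and AMP kinase and carboxylase control had 0 of 12.

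In acetyl-CoA and citrate supply, 1 of 13 genes was called upregulated, and the median was 0.38. It was SLC25A1, the carrier that exports citrate from mitochondria, with 2818 counts in the steer pool and 662 in the bull pool and a log2 fold change of 1.97. The monocarboxylate transporters SLC16A7 and SLC16A3 were at 0.96 and -0.67, neither called. The acyl-CoA synthetase relatives of ACSS2 did not share its difference, with ACSS3, a mitochondrial enzyme, at 0.53 (95% interval 0.30 to 0.78) and AACS, which activates acetoacetate, at 0.38 (95% interval 0.22 to 0.55).

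Of 10 genes of NADPH supply, 1 was called upregulated, and the median was 0.48. ME1, the cytosolic malic enzyme, had 320 counts in the steer pool and 179 in the bull pool (0.72 on the log2 scale, not called), and TKT, transketolase and the most abundant gene of the list, had 8686 and 5397 (0.56, not called). With scaling to total counts 0 of the 10 were called upregulated. The differences of ME1 and TKT were smaller than that of FASN, which uses NADPH.

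In desaturation and elongation, the steps that follow palmitate, 3 of 11 genes were called upregulated, and the median was 0.55. ELOVL6, the elongase of palmitate, had 1368 counts in the steer pool and 322 in the bull pool (1.96), ELOVL5, an elongase of polyunsaturated chains, 1343 and 385 (1.68), and HSD17B12, the ketoreductase of the elongation cycle, 456 and 126 (1.73). TECR, the last enzyme of that cycle and the most abundant of the list, had 2181 and 1367 (0.55, not called).

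The list of SREBP processing and its sterol branch had 3 of 15 genes called upregulated and a median of 0.53. INSIG1, which retains SCAP in the endoplasmic reticulum and is itself an SREBP target, had 1237 counts in the steer pool and 145 in the bull pool, with a log2 fold change of 2.97 (95% interval 2.72 to 3.23). SQLE, squalene epoxidase of cholesterol synthesis, had 115 and 35 counts (1.59). MBTPS1, the protease that makes the first cut in SREBP and the most abundant gene of the list, had 3184 and 2553 (0.20), and SREBF2, the paralog of SREBF1 that drives the sterol genes, had 1329 and 1035 (0.24, 95% interval 0.12 to 0.36). Thus SREBF1, SREBF2, SCAP and MBTPS1 were all uncalled, while INSIG1 and SQLE were called.

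The 15 other transcription factors upstream of lipogenesis held 0 calls in either direction, with a median of 0.08. PPARG and CEBPA among them are also on the adipocyte list. NR1H2, a liver X receptor and the most abundant of them, had 1199 counts in the steer pool and 1014 in the bull pool (0.12). CEBPA, a factor of fat cell differentiation, had 409 and 668 (-0.83) and was called downregulated with scaling to total counts, and NFYA, a partner of SREBP at promoters, had 242 and 156 (0.51). MLXIP, the paralog of MLXIPL, had 365 and 485 counts (-0.53).

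Of 12 genes on the list of AMP kinase and carboxylase control, 0 were called upregulated and 1 downregulated, and the median was -0.11. ACACB, the carboxylase paralog at the mitochondrial surface whose malonyl-CoA restrains fatty acid oxidation, was that gene. It had 72 counts in the steer pool and 135 in the bull pool, and its log2 fold change of -1.03 (95% interval -1.46 to -0.61) lay opposite in sign to the 3.21 of ACACA. The ACACB call was lost with scaling to the adipocyte markers, where the whole interval had to pass 2-fold, and with an assumed biological coefficient of variation of 0.2. PRKAB1, a subunit of AMP-activated protein kinase and the most abundant gene of the list, had 684 and 652 counts (-0.05). PRKAG3, another subunit, was at -0.59 and CAB39, a scaffold of its upstream kinase, at -0.43, and neither was called.

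The mitochondrial fatty acid synthesis enzymes, which work apart from FASN, and the thioesterases had 0 calls in 8 genes and a median of 0.14. MCAT, the malonyl transferase and the most abundant of them, had 597 counts in the steer pool and 302 in the bull pool (0.86). ACSF3, which makes malonyl-CoA in mitochondria, was at 0.63 and AASDHPPT, which activates acyl carrier proteins and FASN, at 0.52. OLAH, the thioesterase that releases medium chains from FASN, had 0 counts in both pools.

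**Figure D4:**
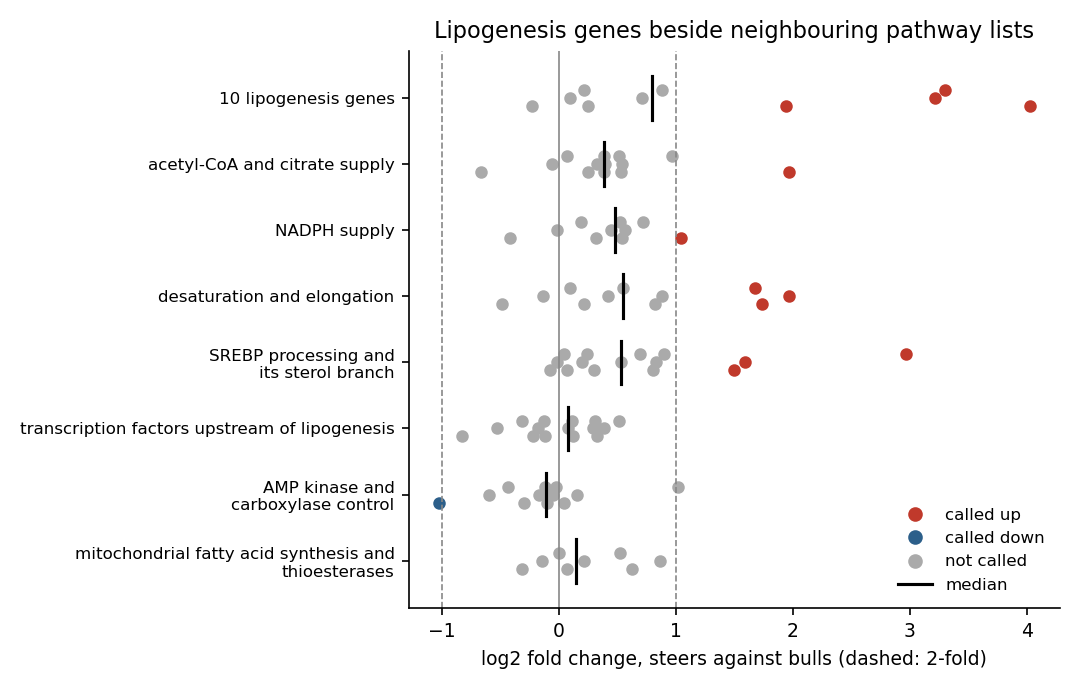
Log2 fold change, steers against bulls, of each gene of the 10 lipogenesis genes and 7 neighbouring lists, with 1 point per gene, colours for calls, a black bar at each median and dashed lines at 2-fold. The 3 largest values are of the lipogenesis genes ACSS2, FASN and ACACA, INSIG1 stands out in the SREBP list at 2.97, and the 15 upstream transcription factors hold no coloured point.

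A further readout at the SREBF1 gene came from the replicated small RNA libraries. The microRNA miR-33b lies within SREBF1 and miR-33a within SREBF2 in the RefSeq gene table, and both are known for lowering transcripts of cholesterol export and fatty acid oxidation. The mature sequences, shown because they tell the pair apart, have the seed (bases 2 to 8) in capitals.
bta-miR-33b: gTGCATTGctgttgcattgc
bta-miR-33a: gTGCATTGtagttgcattgca
Over the 20 compared positions, counted from 1 at the 5′ end of miR-33b, the sequences differed by C9T and T10A. Of the 766 known bovine miRNAs that the study listed with a sequence as expressed in this IMF, 2 carried this seed, namely this pair.

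For miR-33b the steer libraries gave 155 and 98 counts and the bull libraries 432 and 345. Normalized with TMM factors these were 19.9 and 11.4 CPM (counts scaled to library size) in steers and 57.1 and 37.0 in bulls. Both bull libraries were above both steer libraries, as they were for 31.5% of the 1073 sequences tested, and the opposite held for 26.7%. The edgeR quasi-likelihood test over these sequences gave a log2 fold change of -1.59 (SE 0.49, Benjamini-Hochberg adjusted p = 0.0149, n = 2 per group), where 7.08% of all sequences were called downregulated. The call was not kept in the edgeR fit with scaling to total counts (-2.06, adjusted p = 0.0723). That fit called 1 of the 1073 sequences upregulated and 0 downregulated, so the loss was not particular to miR-33b. The log2 fold change was -2.00 without steers replicate 1 and -1.21 without steers replicate 2. It was -1.05 without bulls replicate 1 and -1.90 without bulls replicate 2. The fits without a library leave 1 library in a group, which is assumed to vary like the other group, so no call is read from them.

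miR-33a, added after the data were seen, gave 28 and 22 counts in the steer libraries and 59 and 58 in the bull libraries. Its values were 3.59 and 2.57 CPM in steers and 7.80 and 6.22 in bulls. Here too both bull libraries were above both steer libraries, as for 31.5% of sequences, and the log2 fold change of -1.18 (SE 0.54) did not pass the edgeR test (adjusted p = 0.125). These p-values set the group difference against the spread between 2 libraries per group, which edgeR estimates in part from all sequences tested. The log2 fold changes of the host gene mRNAs, from the unreplicated pools, were 0.25 for SREBF1 and 0.24 for SREBF2.

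**Figure D5:**
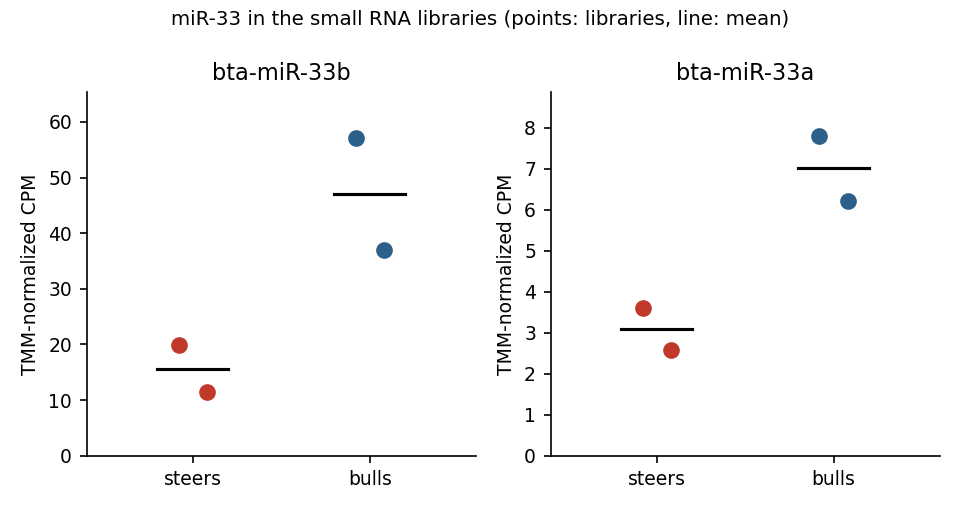
TMM-normalized CPM of miR-33b and miR-33a in the 2 steer and 2 bull small RNA libraries, with 1 point per library and a line at the mean of each group. In both panels the bull libraries lie above the steer libraries, from 37.0 to 57.1 against 11.4 to 19.9 for miR-33b and from 6.22 to 7.80 against 2.57 to 3.59 for miR-33a.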

How the data were processed

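IMF mRNA (Ion Proton) and small RNA (Illumina HiSeq) libraries were grouped as steers or bulls by the treatment in their labels. The deposited values are raw counts without normalization. The authors trimmed the mRNA reads and mapped them with MapSplice to a bovine assembly. Their small RNA reads were mapped by BWA to miRBase and to that genome. The submitters' processing notes name a human genome build. Which program counted the reads, and whether it used strand, is not given in the sources used here.

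For mRNA, a two-sided exact binomial test (scipy 1.17.1, which sums the outcomes no more likely than the one seen) was run on the 2 counts of every gene after median-of-ratios scaling. Its p-values were adjusted by Benjamini-Hochberg over all genes that had a count. Calls needed more than a 2-fold difference and an adjusted p under 0.05. List medians used a prior of 0.5 counts. Intervals are 95% Clopper-Pearson intervals, and for ratios of 2 genes they are Woolf intervals of the odds ratio. Reads without molecular identifiers are not independent molecules, so these cover counting error only. Small RNA counts were fitted in edgeR 4.0.16 under R 4.3.3 (filterByExpr, TMM, glmQLFit, glmQLFTest). Both tests were tested on simulated data.

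The genes, lists and tests were chosen with earlier results of these data known. Named are the 10 genes, their paralogs, and of each pathway list the most abundant gene and the 3 genes with the largest absolute log2 fold change among those that reached 10 counts in both libraries. The marker genes named beside these, and the added gene pairs, were chosen after their values were seen. TALDO1, IDH2, SCD, THRB, STK11 and NDUFAB1 of the lists were not analysed here. The values of some single genes that the rule names are not reported here. The RefSeq table of assembly ARS-UCD2.0, which matched all 10 genes, was used only for which genes overlap. The miRNA sequences are those listed by the study. Promoter and protein sequences were not analysed here. Alternatives were other scalings, filters and thresholds, assumed biological variation for mRNA, DESeq2 1.42.0 for small RNA, the replicate number as a block, and each small RNA library left out in turn.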

Additional observations from a re-analysis of the deposited data

How the results depend on the processing

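The calls of ACSS2, FASN and ACACA were kept under all 12 alternatives tried for the mRNA, and that of THRSP under all but an assumed biological coefficient of variation of 0.4. Of 120 values of single lipogenesis genes under these alternatives, 109 kept direction and call, 1 lost and 6 gained a call, and 4 changed sign. Only the alternatives with another scaling could change a sign, since the others used the same fold changes. All 12 reused the same 2 libraries, so a kept call does not bear on the spread between animals. The sign changes were ACSS1 (-0.147) and SCAP (-0.0217) with total counts, ACSS1 (-0.0414) with total counts without the 10 most abundant genes, and MLXIPL (0.151) with the adipocyte markers. The median of the 10 genes, read with a tolerance of 0.1, was 0.55, 0.66 and 1.18 under these 3 scalings, which put the median of all genes at -0.23, -0.12 and 0.39. Without a fold threshold 8 of the 10 genes were called. Over all genes, 827 were called upregulated and 1509 downregulated. These counts became 1958 and 985 with the adipocyte markers, 3619 and 3354 without a fold threshold, 376 and 784 where the whole interval had to pass 2-fold, 368 and 762 with an assumed coefficient of variation of 0.2, and 52 and 93 with 0.4. Doubling the smaller binomial tail, an alternative added after an earlier count of calls from these data was seen to differ, gave 776 and 1444 and the same 4 calls among the 10 genes. The causes were not tested.

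For miR-33b the edgeR call was also lost with no filter on low counts (-1.66, adjusted p = 0.0649, 8303 sequences tested). Leaving out each library in turn gave -2.00 to -1.05, and total counts gave -2.06. The call was kept with upper quartile scaling and with DESeq2 (adjusted p = 0.0305 and 0.0181). With the replicate block it was -1.61 (edgeR adjusted p = 0.00067), miR-33a then passed the test (adjusted p = 0.0207), and calls over all sequences went from 76 up and 76 down to 133 and 119. Same-numbered libraries deviated with a correlation of 0.304, which with 2 pairs does not establish a pairing. No mRNA fit could use a block, with 1 library per group. Depth limited MLXIPL most, and pooling left the spread between animals unmeasured.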
